A study of Mus musculus with 6 samples.

Results

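The 8 genes of MHC class II antigen presentation described here are H2-Aa, H2-Ab1, H2-Eb1, H2-DMa, H2-DMb1, Cd74, Ciita and Cd86, found by symbol among the 33696 genes of single-cell RNA libraries of mouse kidney. MHC class II molecules display peptides from engulfed protein to CD4+ T cells. H2-Aa and H2-Ab1 encode the alpha and beta chains of the I-A molecule and H2-Eb1 the beta chain of I-E. Cd74 is the invariant chain that occupies the peptide groove while the molecule is being assembled, and H2-DMa and H2-DMb1 form the chaperone that exchanges its last fragment for a peptide. Ciita is the transcriptional coactivator of the class II genes, and Cd86 is a costimulatory ligand that T cells read together with the peptide. Macrophages, dendritic cells and B cells are the classical presenting cells. Endothelial and tubular epithelial cells can acquire class II molecules in inflamed tissue.

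The groups were 3 sham mice and 3 DOCA-salt mice, with 1 kidney library per mouse. All were male C57BL/6 mice, purchased at 8 to 10 weeks of age. DOCA-salt mice had the left kidney removed and, 1 week later, received a 50 mg pellet of deoxycorticosterone acetate (DOCA), a mineralocorticoid, with 1% NaCl as drinking water for 21 days. Sham mice had sham surgery, normal water and no pellet, so that the effects of nephrectomy, DOCA and salt cannot be told apart. C57BL/6 mice carry a deletion at H2-Ea, the alpha chain of I-E, and each library held 0 to 2 H2-Ea UMIs (unique molecular identifiers, 1 per captured transcript).

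Libraries held 93172739 to 137819127 UMIs over 11058 to 14449 barcodes, and 55630 cells were kept, 7701 to 9933 per mouse. Cells were named from fixed marker lists that contain none of the 8 genes. For each mouse the UMIs of a cell type were then added up and given as CPM, which scales every sum to the same total of UMIs. Each pair of libraries shared 33 to 69 barcodes. In macrophages, dendritic cells, B cells and endothelial cells all the markers of the cell's own list had UMIs. Macrophages made up 1.46% ± 0.162 of sham and 5.36% ± 0.721 of DOCA-salt kidney cells (mean ± SD over 3 mice, here and below). Dendritic cells went from 0.402% ± 0.129 to 0.784% ± 0.158, B cells from 0.530% ± 0.0763 to 0.216% ± 0.0892 and injured tubule cells from 0.365% ± 0.202 to 2.89% ± 0.303.

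The 5 H2 members lie within 197134 bases of chromosome 17 (GRCm39, GENCODE vM39 positions). H2-DMa lies at chr17:34338515-34358958, H2-DMb1 at chr17:34372046-34379204, H2-Ab1 at chr17:34476663-34488393 and H2-Eb1 at chr17:34504236-34535648, each on the plus strand. H2-Aa lies at chr17:34493404-34506798 on the minus strand and overlaps H2-Eb1 by 2563 bases. Ciita lies at chr16:10297923-10347694 on the plus strand and Cd86 at chr16:36424044-36486443 on the minus strand. The lncRNA Gm20513 runs opposite 15838 bases of H2-Eb1, and Dexi opposite 29935 bases of Ciita. H2-DMa shares 9074 bases with the lncRNA Gm50336 on its own strand and runs opposite 3231 bases of Brd2. The use of strand in the counting is not given in the sources used here, so counts of these overlapping pairs are uncertain, as are those of H2-DMa and Gm50336 with or without strand. Counts of H2-DMb1 and H2-Eb1 are also uncertain toward their close copies H2-DMb2 and H2-Eb2.

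The promoters of 3 members are shown because members of this set share a promoter layout: an X box, bound by the RFX complex, followed by a Y box, bound by NF-Y, on which Ciita assembles. Each window runs from 250 bases before to 50 bases after the annotated start, 5′ to 3′ on the gene's strand, from RefSeq (GRCm38.p6). Capitals mark GNAACT, the core of the X box, and ATTGG, the core of the Y box.
H2-Aa: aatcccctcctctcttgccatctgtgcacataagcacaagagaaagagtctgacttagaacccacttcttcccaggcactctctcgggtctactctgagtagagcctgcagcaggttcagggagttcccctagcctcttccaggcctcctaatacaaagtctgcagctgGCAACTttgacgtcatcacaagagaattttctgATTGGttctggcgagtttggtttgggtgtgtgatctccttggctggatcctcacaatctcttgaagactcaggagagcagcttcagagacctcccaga
H2-DMb1: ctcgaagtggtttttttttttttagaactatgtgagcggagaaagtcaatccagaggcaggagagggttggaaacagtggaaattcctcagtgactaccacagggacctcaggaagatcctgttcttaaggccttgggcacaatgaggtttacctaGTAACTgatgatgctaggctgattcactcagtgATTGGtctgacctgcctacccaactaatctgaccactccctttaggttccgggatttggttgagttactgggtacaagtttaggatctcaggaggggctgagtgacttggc
H2-Eb1: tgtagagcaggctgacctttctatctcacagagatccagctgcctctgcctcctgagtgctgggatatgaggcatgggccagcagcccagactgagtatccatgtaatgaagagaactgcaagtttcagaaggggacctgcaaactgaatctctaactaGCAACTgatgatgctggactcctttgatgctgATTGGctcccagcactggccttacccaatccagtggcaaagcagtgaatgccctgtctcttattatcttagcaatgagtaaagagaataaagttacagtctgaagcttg
The windows lie at chr17:34287774-34288073 on the minus strand (H2-Aa), chr17:34152941-34153240 on the plus strand (H2-DMb1) and chr17:34305617-34305916 on the plus strand (H2-Eb1). GNAACT starts 81, 94 and 91 bases before the start in this order, and 27, 27 and 26 bases separate it from ATTGG. Neither of the 2 H2-DMa windows held the pair. Of 32851 promoters of the same length, searched on both strands, 42.8% held GNAACT, 37.4% held ATTGG and 1.13% held both on 1 strand with 15 to 40 bases between them, limits that were set after these windows had been read. The motifs do not overlap, and a match is a description of the letters only. The H2-Ab1, Cd74, Ciita and Cd86 promoters were not analysed here.

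By the mean over the 6 mice all 8 members were highest in macrophages or dendritic cells, with B cells in the third place. For Cd86 that place did not hold in DOCA-salt mice alone. There monocytes had the higher mean, with 708, 443 and 575 CPM against 260, 377 and 675 CPM in B cells. For Cd74 the mean over the 6 mice was 20909 CPM in macrophages (range 16014 to 27198), 14156 in dendritic cells (10695 to 19623) and 6870 in B cells (5453 to 8097). The ranges of macrophages and dendritic cells overlapped, while B cells lay below both. Monocytes followed with 2003 CPM (454 to 4435), then cycling cells with 1143 (148 to 2319) and injured tubule cells with 571 (281 to 850.0). These 3 neighbours overlapped. Endothelial cells, at 89.9 CPM (53.6 to 122), and proximal tubule cells, at 88.3 CPM (18.8 to 182), lay below every mouse of the injured tubule cells and overlapped each other. These near means join unlike groups. In sham mice endothelial cells (107, 53.6 and 122 CPM) lay above proximal tubule cells (27.7, 18.8 and 42.3 CPM). In DOCA-salt mice endothelial cells (62.7, 112 and 82.3 CPM) had a lower mean than proximal tubule cells (84.5, 182 and 174 CPM), with overlap. Among the tubular types the lowest mean was that of distal convoluted tubule cells, at 24.8 CPM (4.53 to 45.8).

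The order differed by role. H2-Aa, H2-Ab1, H2-Eb1, Cd74 and Cd86 had their highest mean in macrophages. H2-DMa was highest in dendritic cells, at 654 CPM (576 to 789) against 461 (406 to 531) in macrophages, and these ranges did not overlap. H2-DMb1, at 609 CPM (504 to 735) against 573 (449 to 652), also had its highest mean there, with overlap. The same held for the mean of Ciita over both groups, at 145 CPM (79.6 to 187) against 121 (88.0 to 149.7) in macrophages, with overlapping ranges. In DOCA-salt mice alone this order was absent: dendritic cells, at 143.5, 142.3 and 141.9 CPM, lay inside the macrophage range of 136.8 to 149.7. Cd86 was the most restricted in the epithelium, with 1.49 CPM (0.678 to 2.66) in proximal tubule cells and 2213 CPM (1719 to 2870.0) in macrophages.

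**Figure D1:**
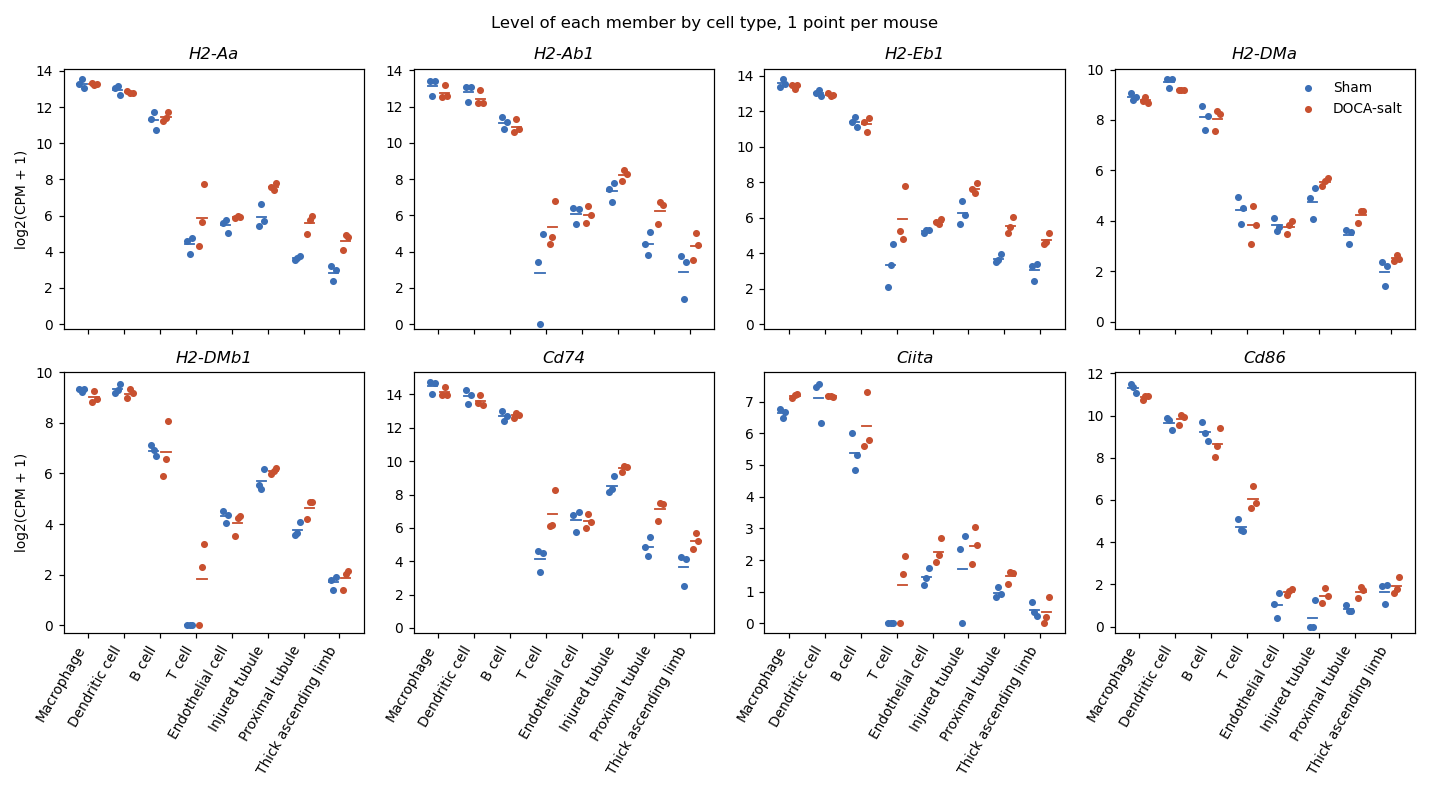
Level of each member as log2(CPM + 1) in 8 cell types, with 1 point per mouse, a line at the mean of 3 mice, sham in blue and DOCA-salt in orange. Macrophages, dendritic cells and B cells have the highest means for every member, with single mice of B cells and injured tubule cells overlapping for H2-DMb1. The groups separate in proximal tubule cells for every member.

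The 8 genes also followed each other across cell types. Over the 21 named types, the mean log2(CPM + 1) of H2-Ab1 had its highest Pearson correlations, among 12308 genes with at least 20 CPM in some type, with H2-Eb1 (0.98), H2-Aa (0.97), Cd74 (0.95), H2-DMb1 (0.94) and Ciita (0.93). The next 5 were Hpgds, Cd83, Ly86, Bmp2k and Gm20513, at 0.91 to 0.86. Cd86 stood at rank 15 (0.85) and H2-DMa at rank 18 (0.84). The 21 points share libraries and include types with few cells, so these values are a description.

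In the whole kidney, all cells together, all 8 members were higher in DOCA-salt mice. Cd74 measured 298, 224 and 359 CPM in the sham mice and 568, 1108 and 1063 CPM in the DOCA-salt mice. H2-Aa measured 111, 166 and 119 CPM against 336, 458 and 619 CPM. Ciita measured 2.02, 2.75 and 2.17 CPM against 5.50, 8.30 and 10.6 CPM. Every DOCA-salt mouse lay above every sham mouse for each of the 8 members, as was the case for 26.6% of all genes tested. The log2 changes ran from 0.97 ± 0.17 (H2-DMa) to 1.71 ± 0.23 (H2-Aa, 3.27-fold, estimate ± SE), with adjusted p-values of edgeR's quasi-likelihood test, over all genes, between 0.00234 and 0.0187. Of 19658 genes tested, 11.5% were higher. Leaving out each mouse in turn gave 6 to 8 called members. The median log2 change was 1.499 over the members and -0.02 over all genes. Whole-kidney sums cannot tell more cells of a type from more RNA per cell, and macrophages were a larger share of the cells in DOCA-salt mice, as given above.

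The cells that held the UMIs of each member moved with the group. Macrophages held 60.5% ± 5.05 of the kidney's Cd74 UMIs in sham mice and 65.2% ± 3.00 in DOCA-salt mice. The share of dendritic cells was 21.0% ± 5.84 and 11.7% ± 2.33, and that of B cells 4.42% ± 1.10 and 0.595% ± 0.362. All tubule cells together, injured cells included, held 8.10% ± 1.38 and 14.5% ± 1.31 of Cd74, and the injured cells alone 0.931% ± 0.682 and 5.82% ± 0.787. For the peptide-exchange genes the tubule was the largest holder in sham mice, with 48.2% ± 5.37 of H2-DMa and 51.9% ± 2.40 of H2-DMb1 UMIs, against 36.7% ± 4.05 and 40.8% ± 5.59 in DOCA-salt mice. Tubular cells of sham mice also held most UMIs of all genes together, with 80905307 of 90424969, 59714001 of 67926136 and 56438788 of 65101025. Their levels were low, at 7.23 to 10.5 CPM of H2-DMa and 10.9 to 14.6 CPM of H2-DMb1. Sham macrophages had 436 to 531 and 585 to 652 CPM. The H2-DMa values carry the uncertainty of its overlaps with Gm50336 and Brd2. Macrophages held 33% ± 7.86 of Ciita UMIs in sham mice and 58.2% ± 3.70 in DOCA-salt mice.

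**Figure D2:**
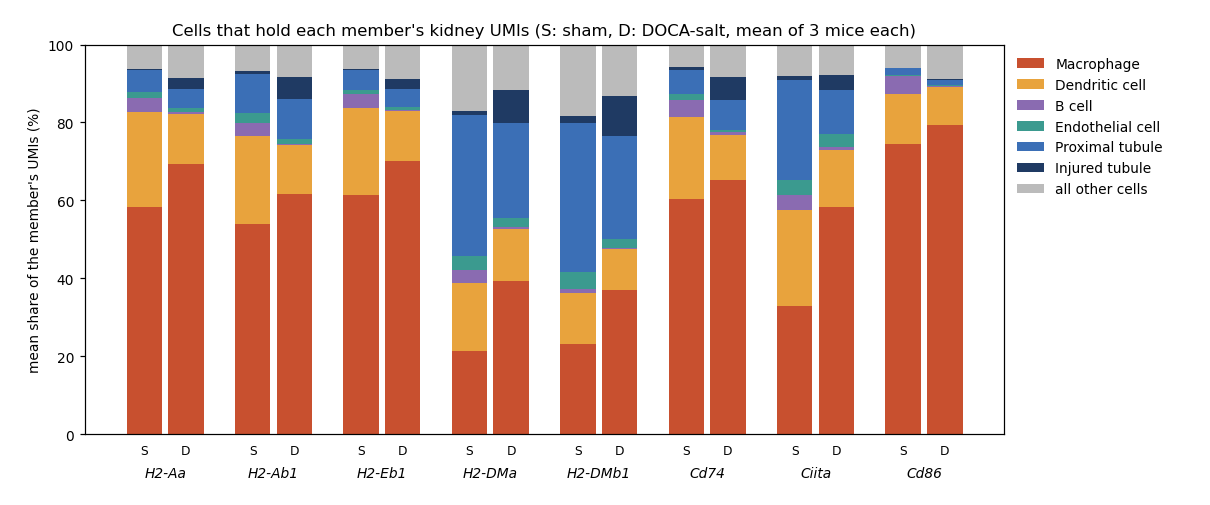
Mean share (%) of each member's kidney UMIs held by 6 cell types and all other cells, in sham (S) and DOCA-salt (D) mice, mean of 3 mice each. Macrophages hold most UMIs of H2-Aa, H2-Ab1, H2-Eb1, Cd74 and Cd86 in both groups, while H2-DMa and H2-DMb1 have a large tubular share.

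Within macrophages no member passed the test. H2-Aa measured 9912, 12126 and 8449 CPM in the sham mice and 10214, 9687 and 10011 CPM in the DOCA-salt mice, and the groups overlapped. H2-Ab1 measured 10953, 6204 and 11051 CPM against 5843, 9435 and 6187 CPM, with wide overlap. Cd74 measured 27198, 16929 and 26864 CPM against 16014, 22231 and 16220.0 CPM, with sham 2 inside the DOCA-salt range. Ciita and Cd86 did not overlap between groups, which is 2 of 8 members, against 24.9% of all genes tested in macrophages, in either direction. Ciita measured 108, 88.0 and 100.4 CPM in the sham mice and 137, 145 and 149.7 CPM in the DOCA-salt mice (log2 change 0.43 ± 0.16, edgeR adjusted p = 0.141). Cd86 measured 2870.0, 2621 and 2157 CPM against 1719, 1957 and 1952 CPM. The Cd86 log2 change in macrophages was -0.54 ± 0.16 (edgeR adjusted p = 0.0719, DESeq2 adjusted p = 0.00336). The coactivator had the higher mean in DOCA-salt mice and the costimulatory ligand the lower, in a share of members near that of all genes.

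Of the 8 members, edgeR called 0 in macrophages, against 4.95% of 8869 genes in either direction, and 3 had an unadjusted p under 0.05 (H2-DMb1, Ciita and Cd86). DESeq2 called 1, Cd86. Of all 8869 genes 1598 had an unadjusted p under 0.05 by edgeR. The 95% intervals of the log2 change were -0.53 to 0.27 for H2-Aa, -0.68 to 0.13 for H2-Eb1, -1.03 to 0.03 for H2-Ab1 and -0.99 to 0.01 for Cd74. All 4 include 0, and the whole-kidney change of each of these genes lies above its interval. The macrophages of the 2 groups were spread unequally over the clusters, each of which held cells of both groups. Of 399 sham macrophages, 240 were in a cluster led by Ccl4 and Mmp13 that held 30 of 1514 DOCA-salt macrophages, and Cd86 was among its 10 leading genes. Most DOCA-salt macrophages were in clusters led by Ptpro (451 cells), Cxcl2 (426) and Ccl8 (285), and Cd86 was also among the 10 leading genes of the Ptpro-led one. In the Ptpro-led cluster, which held 59 sham cells, pooled Cd86 was 3577 CPM in sham and 2248 CPM in DOCA-salt mice and pooled Ciita 113 and 198 CPM. In the Cxcl2-led cluster, with 57 sham cells, the Cd86 values were 1760 and 2152 CPM and the Ciita values 79.3 and 111 CPM. In the Ccl4-led cluster pooled Cd86 was 2874 and 2714 CPM and pooled Ciita 79.1 and 168 CPM. The highest pooled Ciita level in DOCA-salt mice was in a cluster led by Tcof1 and Pid1, which had Ciita itself among its 10 leading genes. Pooled Ciita there was 352 CPM in 32 sham and 289.7 CPM in 179 DOCA-salt cells, and pooled Cd86 was 759.6 and 804 CPM. Over these 4 clusters Ciita was higher in DOCA-salt mice in 3, all but the Tcof1-led one, and Cd86 in 2, the Cxcl2-led and Tcof1-led ones. Of the 59 sham cells of the Ptpro-led cluster 39 came from sham 2, and the remaining 2 clusters held 3 and 8 sham cells. Of the 30 DOCA-salt cells of the Ccl4-led cluster 21 came from DOCA-salt 3.

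The share of macrophages with a UMI was higher for Ciita and lower for Cd86 in DOCA-salt mice. With each cell thinned to 1000 UMIs, 9.0% ± 1.08 of sham and 14.4% ± 1.05 of DOCA-salt macrophages had a Ciita UMI (28.8% and 46.5% unthinned). For Cd86 the thinned shares were 78.6% ± 2.72 and 72.2% ± 2.92. Both differences had an exact two-sided permutation p = 0.1, the smallest that 3 against 3 mice allow. Almost every macrophage had a Cd74 UMI, 99.7% ± 0.372 and 98.1% ± 1.22. In tubular cells, taken here as cells that make little of either, the thinned Ciita shares were 0.0827% and 0.155% and the Cd86 shares 0.112% and 0.253%. The median was 7260 to 10919.5 UMIs per tubular cell over the mice and 3655 to 5802.5 UMIs per macrophage.

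Among the other genes of the pathway in macrophages, 2 of 12 tested were higher and 1 was lower. Of all 8869 genes tested in macrophages 234 were higher and 205 lower, 4.95% in either direction. Lgmn, a lysosomal protease that trims antigen and the invariant chain, rose (log2 change 0.96 ± 0.17, edgeR adjusted p = 0.00283), as did Marchf1, the ubiquitin ligase that removes class II and Cd86 from the cell surface (0.60 ± 0.16, adjusted p = 0.0479). H2-Oa, a chain of the inhibitor of H2-DM, fell by 2.79 ± 0.41 on the log2 scale (adjusted p = 0.000959). The median over the 12 was 0.28, and over all genes 0.01. In the interferon gamma axis, 2 of 11 rose, the receptor chains Ifngr1 (0.70 ± 0.19) and Ifngr2 (0.60 ± 0.17), and the interferon target Cxcl10 fell by 1.13 ± 0.17. Of 6 costimulatory genes and 10 class I presentation genes tested, 0 were called by edgeR, and at an unadjusted p under 0.05 there were 0 and 1 (Tap2). Of all 8869 genes 1598 had such a p-value.

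In dendritic cells and B cells no member was called either. In dendritic cells H2-Aa measured 8394, 9277 and 6468 CPM in the sham mice and 7561, 7094 and 7125 CPM in the DOCA-salt mice. Cd74 measured 19623, 11163 and 15858 CPM against 11645, 15953 and 10695 CPM. Both overlapped, and edgeR called 0 of 8 members (0 also by DESeq2 and 0 at an unadjusted p under 0.05), against 0.0707% of 5661 genes. Of all 5661 genes 359 had an unadjusted p under 0.05. H2-DMa was the 1 member of 8 whose groups did not overlap, against 12% of all genes in either direction, with 789, 610.4 and 779.9 CPM in the sham mice and 576, 587 and 581 CPM in the DOCA-salt mice (log2 change -0.38 ± 0.20, edgeR adjusted p = 0.814). In B cells Cd74 measured 8097, 5453 and 6685 CPM against 6212, 7704 and 7070.4 CPM. Here edgeR and DESeq2 called 0 of 7 members tested, 0 had an unadjusted p under 0.05, and 0% of 1671 genes passed. Of all 1671 genes 105 had an unadjusted p under 0.05. Dendritic cells numbered 26 to 42 per sham mouse and 64 to 93 per DOCA-salt mouse, and B cells 43 to 58 and 14 to 28, which limits what these comparisons can show.

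The change of Cd86 differed between macrophages and dendritic cells. In dendritic cells Cd86 measured 945, 877 and 630.3 CPM in the sham mice and 745, 1057 and 967 CPM in the DOCA-salt mice, an overlap with the higher mean in DOCA-salt mice. The Cd86 difference of log2 changes, macrophages minus dendritic cells was -0.70 ± 0.16 (edgeR interaction with mouse as block, adjusted p = 0.0409). It was the only one of the 8 members that passed, against 0.823% of 7537 genes. The call was lost without any 1 of sham 2, sham 3 and the 3 DOCA-salt mice, where the difference was -0.78 to -0.62 with adjusted p-values of 0.0717 to 0.195. It was also lost with at most 20% mitochondrial UMIs (adjusted p = 0.0567) and with cells clustered at resolution 2 (adjusted p = 0.128).

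H2-Ab1 and Cd74 varied together from mouse to mouse within each group. In macrophages the number of H2-Ab1 UMIs per H2-Aa UMI was 1.10, 0.512 and 1.31 in the sham mice and 0.572, 0.974 and 0.618 in the DOCA-salt mice. In dendritic cells it was 1.05, 0.535 and 1.33 against 0.614, 1.09 and 0.659. In B cells it was 1.05, 0.522 and 1.30 against 0.646, 0.936 and 0.516. Sham 2, DOCA-salt 1 and DOCA-salt 3 were thus the low libraries in each of these types. The same libraries were low in endothelial cells (0.858, 0.816 and 1.11 against 1.49 to 2.49 in the others) and in proximal tubule cells (1.11, 1.46 and 1.502 against 1.90 to 2.57). Cd74 per H2-Aa UMI followed the same order in macrophages, with 2.74, 1.40 and 3.18 against 1.57, 2.30 and 1.62. H2-Eb1 per H2-Aa UMI did not, with 1.07, 1.19 and 1.38 against 1.11, 1.02 and 1.14, and Cd74 per H2-Ab1 UMI stayed between 2.36 and 2.74. H2-Ab1 and Cd74 had the largest standard errors among the 8 members in macrophages, 0.25 and 0.23. Each library is 1 mouse, so that animal and library cannot be told apart.

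**Figure D3:**
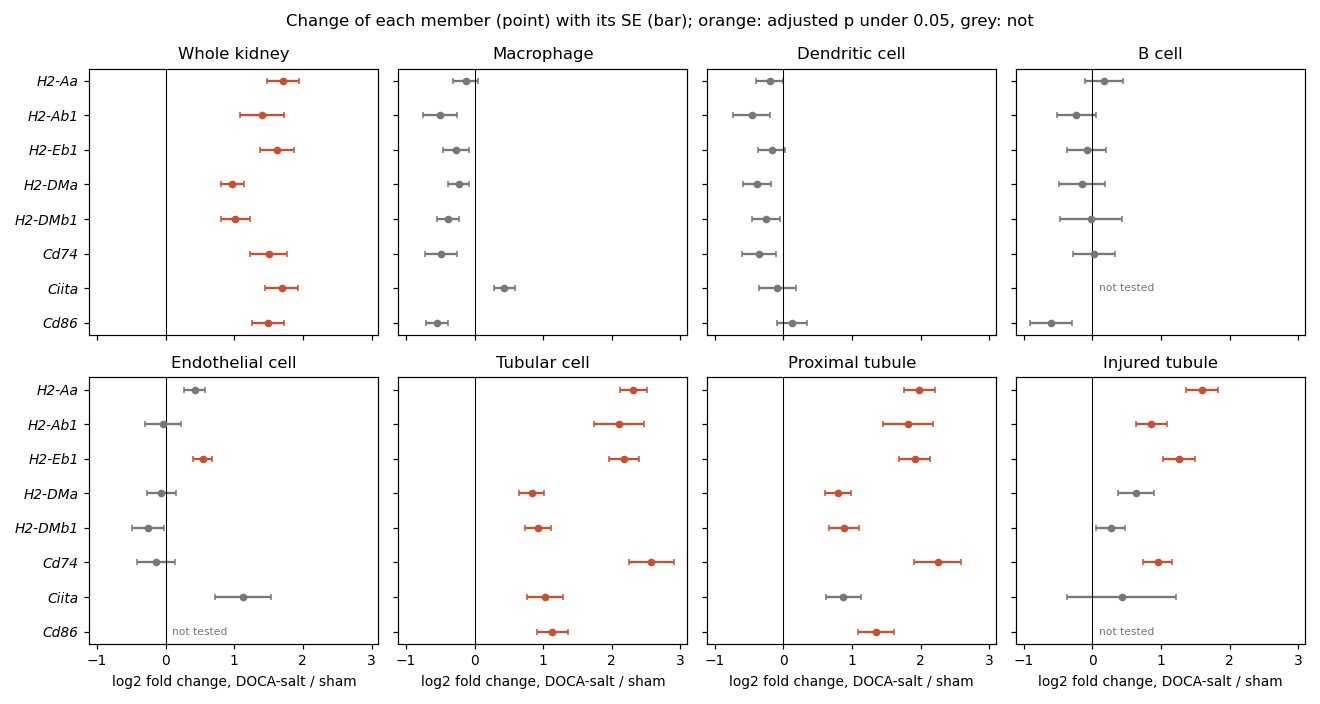
Log2 fold change of each member, DOCA-salt over sham (point), with its standard error (bar), in the whole kidney and 7 cell types, orange where the adjusted p is under 0.05 and grey where it is not. All 8 members are orange in the whole kidney and in tubular cells, none is in macrophages, dendritic cells or B cells, and H2-Eb1 alone is in endothelial cells.

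In tubular cells, all nephron segments together, all 8 members were higher in DOCA-salt mice. Cd74 measured 25.4, 17.9 and 40.0 CPM in the sham mice and 108, 202 and 206 CPM in the DOCA-salt mice. H2-Aa measured 10.2, 10.6 and 11.2 CPM against 38.3, 55.7 and 70.5 CPM. The groups were far apart for both, as they were for H2-Ab1 (18.2, 10.9 and 27.4 CPM against 49.7, 106 and 96.6 CPM) and H2-Eb1 (10.4, 11.4 and 13.7 CPM against 42.6, 48.8 and 75.8 CPM). The peptide-exchange genes were higher by less, H2-DMa with 10.5, 7.23 and 10.3 CPM against 13.6, 18.5 and 19.5 CPM, and H2-DMb1 with 11, 10.9 and 14.6 CPM against 17.5, 26.4 and 27.9 CPM. Ciita measured 0.655, 0.988 and 0.744 CPM against 1.16, 1.97 and 1.91 CPM, from 42 to 147 UMIs per mouse. Cd86 measured 1.19, 0.787 and 0.939 CPM against 1.67, 2.46 and 2.53 CPM, from 47 to 184 UMIs per mouse. No member overlapped between the groups, and of all genes tested 18.9% lay above every sham mouse in every DOCA-salt mouse.

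The log2 changes in tubular cells were 2.58 ± 0.33 for Cd74 (5.97-fold), 2.31 ± 0.20 for H2-Aa (4.97-fold), 2.18 ± 0.22 for H2-Eb1 and 2.10 ± 0.36 for H2-Ab1. They were 1.13 ± 0.23 for Cd86, 1.03 ± 0.26 for Ciita, 0.92 ± 0.19 for H2-DMb1 and 0.83 ± 0.18 for H2-DMa (1.78-fold). The adjusted p-values of edgeR's test were 0.000663 to 0.0460, and 5.61% of 18081 genes were higher. H2-Aa, H2-Eb1 and Cd74 passed without any 1 mouse. The number of members called fell to 4 without sham 1, DOCA-salt 2 or DOCA-salt 3, where H2-DMa, H2-DMb1 and Ciita were lost each time, H2-Ab1 without sham 1, and Cd86 without either DOCA-salt mouse.

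These sums include injured tubule cells, which were 0.206% to 0.797% of the tubular cells of sham mice and 3.42% to 4.86% of those of DOCA-salt mice. Injured cells held 3.30%, 13.2% and 16.7% of the tubular Cd74 UMIs in the sham mice and 40.9%, 37.5% and 41.7% in the DOCA-salt mice, so the pooled change holds both a shift between clusters and the changes within them. Without injured cells 5 of 8 members were higher, against 3.97% of 17918 genes. The log2 changes were then 2.17 ± 0.32 for Cd74, 1.97 ± 0.21 for H2-Aa, 1.83 ± 0.20 for H2-Eb1, 1.77 ± 0.36 for H2-Ab1 and 1.17 ± 0.23 for Cd86. H2-DMb1 (0.69 ± 0.19), H2-DMa (0.61 ± 0.17) and Ciita (0.78 ± 0.25) did not pass, with edgeR adjusted p-values of 0.0682, 0.0751 and 0.107.

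Proximal tubule cells, the main segment, gave 7 of 8 members higher, against 4.82% of 16035 genes. Cd74 measured 27.7, 18.8 and 42.3 CPM in the sham mice and 84.5, 182 and 174 CPM in the DOCA-salt mice (log2 change 2.25 ± 0.34, edgeR adjusted p = 0.00819). Ciita, with 33 to 95 UMIs per mouse, did not pass (log2 change 0.87 ± 0.26, edgeR adjusted p = 0.0750). The count of members called fell to 4 without sham 1 and to 3 without DOCA-salt 2 or DOCA-salt 3, and H2-Aa, H2-Eb1 and Cd74 passed each time.

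Injured tubule cells, a cluster led by C3 and Havcr1, had the highest mean Cd74 level of the tubular types. They numbered 15 to 55 per sham mouse and 233 to 311 per DOCA-salt mouse. Cd74 measured 281, 319 and 541 CPM in the sham mice and 641, 850.0 and 796 CPM in the DOCA-salt mice (log2 change 0.95 ± 0.22, edgeR adjusted p = 0.0108). H2-Aa measured 41.4, 97.3 and 50.1 CPM against 189.6, 169 and 226 CPM (1.59 ± 0.23, edgeR adjusted p = 0.000349). H2-Ab1 (0.86 ± 0.22) and H2-Eb1 (1.26 ± 0.24) also passed, which made 4 of 7 tested, against 2.16% of 11409 genes. None of these 4 overlapped between groups, nor did H2-DMa, which is 5 of 7, against 14.1% of all genes tested. H2-DMb1 (0.27 ± 0.21), H2-DMa (0.63 ± 0.27) and Ciita (0.43 ± 0.80) did not pass, and Cd86 was not tested, with 0, 0 and 1 UMI in the sham mice. Without sham 1 only H2-Aa and H2-Eb1 passed, and H2-Ab1 was also lost without sham 2, DOCA-salt 2 or DOCA-salt 3.

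Over thin limb, thick ascending limb, distal convoluted tubule, connecting tubule, principal and intercalated cells, H2-Aa and H2-Eb1 were higher in 6 of 6, by 1.62 to 2.07 and 1.09 to 1.94 on the log2 scale. Cd74 was higher in 5 of 6, all but the thick ascending limb (1.41 to 1.79), and H2-Ab1 in 1 of 6, the distal convoluted tubule (1.04 to 1.71). H2-DMa and H2-DMb1 were called in none of the 5 and 4 segments where edgeR tested them (log2 changes -0.35 to 0.51 and -0.05 to 0.22). H2-Aa lay between 3.19 and 10.7 CPM in any sham mouse and segment and between 13.6 and 49.9 CPM in any DOCA-salt mouse and segment, with no overlap. Counted by segment, 3 of 6 members tested were higher in thin limb cells (0.491% of genes), 2 of 7 in thick ascending limb cells (0.773%), 4 of 4 in distal convoluted tubule cells (4.88%) and 3 of 5 in connecting tubule cells (11.9%). In principal cells 3 of 6 were higher (4.06% of genes) and in intercalated cells 3 of 6 (3.35%). Immune markers were higher in the same segments, 2 of 5 tested in thin limb, 5 of 8 in thick ascending limb, 3 of 5 in distal convoluted tubule, 4 of 6 in principal and 5 of 7 in intercalated cells, with median log2 changes of 1.70 to 2.90. In connecting tubule cells 0 of 2 immune markers tested were higher by edgeR (median 0.32). The part of these markers' cells in the segment results was not tested.

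RNA of immune cells was higher in the same tubular sums. The complement genes C1qa, C1qb and C1qc, which macrophages make, summed to 2.06 to 6.41 CPM in tubular cells of sham mice and 17.8 to 27.6 CPM in those of DOCA-salt mice. The whole list of 13 immune markers summed to 46.5 to 68.4 and 80.1 to 100.2 CPM, with no marker at 0 in any mouse, and 5 of 11 tested were higher. In injured tubule cells the same list summed to 126 to 153 and 64.8 to 76.4 CPM, with 8 to 10 markers at 0 per sham mouse and 1 to 2 per DOCA-salt mouse. Its members did not move together there: C1qc (log2 change 7.12 ± 2.03) and Lyz2 (3.64 ± 0.96) were higher and Csf1r fell by 2.08 ± 0.16, while the summed C1q level was 2.86 to 12.4 CPM in sham and 15.6 to 23.9 CPM in DOCA-salt mice. The size of the C1qc change rests on few counts, as injured cells of sham mice held 7 C1q UMIs in all. In the thick ascending limb the 4 genes H2-Aa, H2-Ab1, H2-Eb1 and Cd74 together had 6.00 to 9.72 UMIs per C1q UMI in sham mice and 3.86 to 5.18 in DOCA-salt mice. In macrophages of the same mice this ratio was 5.06 to 6.02 and 3.63 to 4.26, and the ranges of both types overlapped in DOCA-salt mice. Fibroblasts of DOCA-salt mice gave a like ratio, 4.11 to 5.12. In proximal tubule cells it was 10.5 to 25.8 and 10.8 to 13.7, and in injured tubule cells of DOCA-salt mice 64.9 to 81.1, above every macrophage value. Injured tubule cells of sham mice gave 44.0 to 307, from 7 C1q UMIs in all.

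In proximal and injured tubule cells H2-Ab1 stood higher relative to H2-Aa than in macrophages. H2-Ab1 per H2-Aa UMI was 1.90, 1.11 and 2.57 in proximal tubule cells of the sham mice and 1.46, 1.99 and 1.502 in those of the DOCA-salt mice, in every mouse above the macrophage ratio of that mouse. In injured tubule cells of DOCA-salt mice it was 1.28, 2.16 and 1.39. Injured cells of the sham mice held 42, 47 and 151 H2-Ab1 UMIs and 10, 43 and 35 H2-Aa UMIs. In the 6 other segments of DOCA-salt mice H2-Ab1 per H2-Aa UMI ran from 0.5 to 1.22, near the 0.572 to 0.974 of macrophages, and lay above the macrophage ratio of the same mouse in 12 of 18 pairs of segment and mouse. Endothelial cells were also above the macrophage ratio in every mouse, at 1.72, 0.858 and 2.49 in sham and 0.816, 1.49 and 1.11 in DOCA-salt mice. H2-Eb1 per H2-Aa UMI overlapped, at 0.826 to 1.14 in proximal tubule cells and 1.02 to 1.38 in macrophages. Without cells that held an immune UMI, 7 of 8 members were higher in tubular cells, against 3.78% of 17308 genes, and the log2 change was 2.55 for Cd74, 2.31 for H2-Aa and 1.197 for Cd86. The lost call was Ciita, at 0.88 ± 0.25 (edgeR adjusted p = 0.0836). In injured tubule cells without those cells, 4 members passed, against 2.15% of 9891 genes. These cells with an immune UMI were 8.91% of sham and 30.2% of DOCA-salt tubular cells and held 16.1% and 46.5% of their Cd74 UMIs. Which genes counted as an immune UMI is not listed here, and they were not necessarily the whole list of immune markers above. What part of the tubular change macrophage RNA makes up in cells without such a UMI was not tested.

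**Figure D4:**
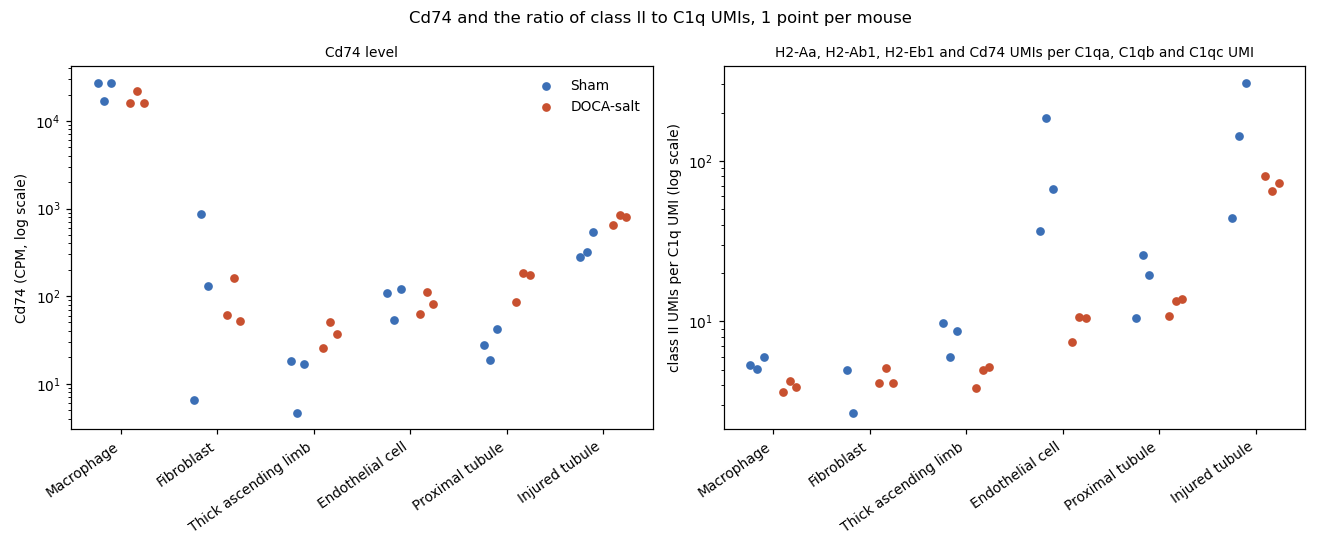
Cd74 level in CPM (left) and UMIs of H2-Aa, H2-Ab1, H2-Eb1 and Cd74 per UMI of C1qa, C1qb and C1qc (right), both on log axes, in 6 cell types with 1 point per mouse, sham in blue and DOCA-salt in orange. In DOCA-salt mice fibroblasts and the thick ascending limb lie near the macrophage ratio of 3.63 to 4.26, and proximal and injured tubule cells lie above it.

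More tubular cells, injured cells included, had class II UMIs in DOCA-salt mice. After thinning each cell to 1000 UMIs, a Cd74 UMI was found in 2.15% ± 0.710 of tubular cells of sham mice and in 11.1% ± 3.65 of those of DOCA-salt mice (12.3% and 41.2% unthinned). In injured tubule cells the thinned shares were 22.6% ± 5.71 and 43.8% ± 4.81. H2-Aa was found in 1.02% ± 0.1 and 4.86% ± 1.45 of tubular cells. Each of these had no overlap and an exact two-sided permutation p = 0.1, the smallest possible. In T cells, taken as a background that should lack Cd74, the shares were 1.74% ± 0.893 and 8.38% ± 4.12, overlapping those of all tubular cells, at a median of 2886.5 to 4551 UMIs per T cell against 7260 to 10919.5 per tubular cell. C1qb was found in 0.199% ± 0.126 and 0.881% ± 0.294 of tubular cells and in 0% and 2.01% ± 0.447 of T cells. The T cell value rests in part on DOCA-salt 3, whose Cd74 level in T cells was 309.6 CPM against 67.0 and 71.8 CPM in the other DOCA-salt mice. T cells are not a matched background: they held fewer UMIs per cell and, in DOCA-salt but not in sham mice, more often a C1qb UMI. The overlap therefore cannot decide, and neither tubular Cd74 expression nor its lack is read from the share in all tubular cells. The mean share of injured cells lay above that of T cells and that of all tubular cells. The part of free RNA in these shares was not tested. The Cd74 UMIs were concentrated: 3.27% of tubular cells of DOCA-salt mice held 50% of them, and 4.32% had 10 or more.

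**Figure D5:**
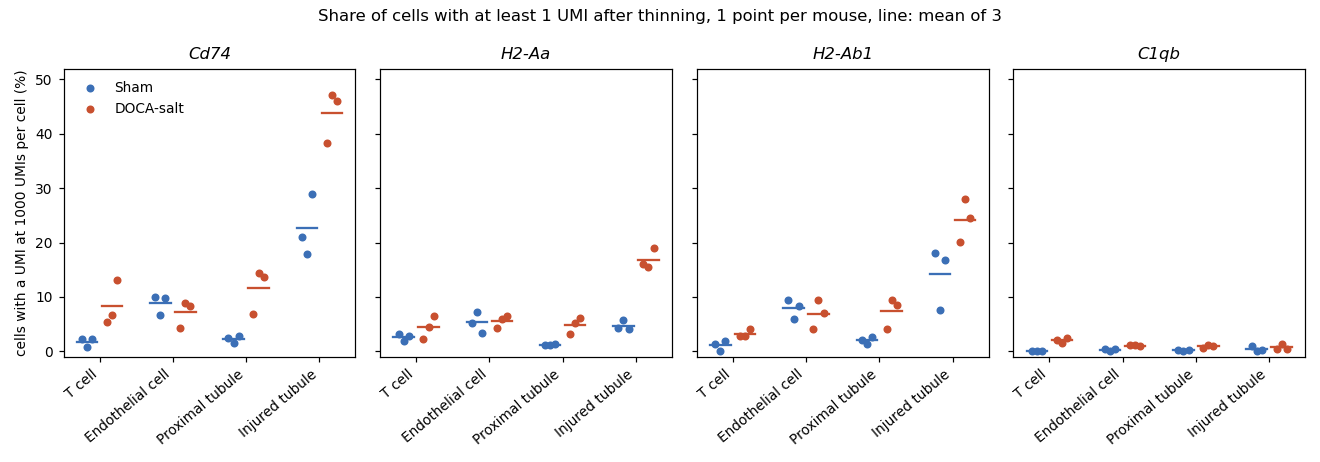
Share of cells (%) with at least 1 UMI of Cd74, H2-Aa, H2-Ab1 and C1qb after thinning to 1000 UMIs per cell, in T, endothelial, proximal tubule and injured tubule cells, 1 point per mouse and a line at the mean of 3. Injured tubule cells stand above the other types for the 3 class II genes, at 43.8% for Cd74 in DOCA-salt mice, and C1qb stays low in all 4 types.

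In endothelial cells the members did not move together. Cd74 measured 107, 53.6 and 122 CPM in the sham mice and 62.7, 112 and 82.3 CPM in the DOCA-salt mice, with wide overlap (log2 change -0.14 ± 0.28, edgeR adjusted p = 0.819). H2-Ab1 measured 82.5, 45.4 and 80.3 CPM against 46.4, 91.1 and 65.1 CPM, also with overlap. For both genes the lower values of each group were those of sham 2, DOCA-salt 1 and DOCA-salt 3. These were the libraries low in H2-Ab1 per H2-Aa UMI. The part of this library pattern in the unlike changes of the members was not tested. H2-Eb1 was the 1 member that passed, with 34.6, 38.2 and 39.0 CPM against 52.8, 48.3 and 60.4 CPM and no overlap (log2 change 0.54 ± 0.14, edgeR adjusted p = 0.0275). H2-Aa, at 48.0, 52.9 and 32.3 CPM against 56.9, 61.0 and 58.5 CPM, did not (0.42 ± 0.16, edgeR adjusted p = 0.113). Ciita, at 1.34, 1.71 and 2.33 CPM against 2.81, 3.43 and 5.54 CPM, did not pass either (1.13 ± 0.41, edgeR adjusted p = 0.109). The groups did not overlap for these 3 members, against 14.9% of all genes tested with every DOCA-salt mouse above every sham mouse. Of 7 members tested 1 was higher, against 6.67% of 12824 genes, and 3 had an unadjusted p under 0.05. Of all 12824 genes 3169 had an unadjusted p under 0.05. The H2-Eb1 call was lost without sham 1, sham 3, DOCA-salt 1 or DOCA-salt 3 (adjusted p 0.0601 to 0.133). It was also lost without doublet removal (0.118) and without cells with an immune UMI, where the log2 change was 0.30 ± 0.21 (0.434). The summed C1q level in endothelial cells was 1.02 to 7.50 CPM in sham and 25.3 to 29.6 CPM in DOCA-salt mice, and the 13 immune markers summed to 21.0 to 50.9 and 84.3 to 94.7 CPM, with 0 to 3 markers at 0 per sham mouse and 0 to 1 per DOCA-salt mouse. Their part in the H2-Eb1 result was not tested beyond leaving out the cells with an immune UMI. Class II per C1q UMI was 36.3 to 186 and 7.40 to 10.6.

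The endothelial clusters were unequal. In the Plvap-led capillary cluster, which held 843 of 1573 sham and 1460 of 2211 DOCA-salt endothelial cells, pooled Cd74 was 166 CPM in sham and 85.7 CPM in DOCA-salt mice. The ranges over mice were 110.3 to 214 and 38.5 to 116 CPM, which overlapped. In the cluster led by Nebl and Sox17 the values were 22.8 and 55.0 CPM, with ranges of 7.29 to 32.5 and 46.5 to 69.6 CPM that did not overlap. In endothelial cells as a whole 14.9% of all genes had every DOCA-salt mouse above every sham mouse. The single clusters were not tested. In the cluster led by Slc14a1 they were 146 and 148 CPM. The Cldn5-led cluster of low depth, with a median of 766 UMIs per cell, had 98.3 and 419 CPM, from 0 to 496 CPM in single DOCA-salt mice.

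The tubular and endothelial changes differed for 6 of 8 members, against 10.6% of 18388 genes. The difference of log2 changes, tubular minus endothelial, was 2.70 ± 0.15 for Cd74, 2.15 ± 0.15 for H2-Ab1, 1.85 ± 0.20 for H2-Aa, 1.61 ± 0.15 for H2-Eb1, 1.18 ± 0.17 for H2-DMb1 and 0.88 ± 0.17 for H2-DMa (edgeR interaction with mouse as block, adjusted p 1.79e-08 to 0.00291). Ciita (-0.09 ± 0.47) and Cd86 (0.23 ± 0.55) did not pass. The standard errors of H2-Ab1 and Cd74 were here smaller than within either type. Leaving out each mouse in turn kept the number at 6. The tubular side of this difference includes the injured cells, whose share differed between groups. Without them 6 members differed, against 10.7% of 18015 genes, and the differences were 2.28 ± 0.14 for Cd74, 1.82 ± 0.15 for H2-Ab1, 1.51 ± 0.21 for H2-Aa, 1.27 ± 0.15 for H2-Eb1, 0.97 ± 0.17 for H2-DMb1 and 0.67 ± 0.17 for H2-DMa.

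Of 12 other genes of the pathway tested in tubular cells 2 were higher, against 5.61% of 18081 genes, and their difference from the members was not tested. Ctss, the protease that degrades the invariant chain, rose by 2.19 ± 0.19 (edgeR adjusted p = 0.000729) and H2-DMb2, a second H2-DM beta chain, by 2.63 ± 0.31. The factors of the X and Y boxes, Rfx5, Rfxap, Rfxank, Nfya, Nfyb and Nfyc, were not called, and Rfx5 had a log2 change of 0.05 ± 0.12. The median over the 12 was 0.08, and over all genes -0.01. In the costimulation list Cd40 rose by 2.40 ± 0.36 and Cd83 by 1.08 ± 0.23, and Cd274, which encodes the inhibitory ligand PD-L1, fell by 0.50 ± 0.13. Of 10 class I genes B2m (1.15 ± 0.15) and H2-D1 (0.46 ± 0.11) rose. Of 11 genes of the interferon gamma axis edgeR called 0 (2 at an unadjusted p under 0.05, against 4213 of all 18081 genes), with -0.21 ± 0.13 for Irf1. In injured tubule cells 3 of 10 of these fell, Cxcl10 by 2.40 ± 0.38, Gbp2 by 2.38 ± 0.56 and Irf1 by 0.79 ± 0.22, against 533 of all 11409 genes lower there.

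In endothelial cells the interferon gamma list had 4 of 10 genes higher, among them Ifngr2 (0.87 ± 0.14), Irf8 (0.90 ± 0.22) and Cxcl10 (0.65 ± 0.18). Ctss (1.41 ± 0.37) and Cd40 (0.93 ± 0.18) were also higher there, with 4 of 8 immune markers. Both counts stand against 6.67% of 12824 genes higher in endothelial cells. In the whole kidney 3 of 15 other pathway genes, 4 of 7 costimulatory, 6 of 10 class I and 3 of 12 interferon genes were higher and 0 were lower by edgeR. Of all 19658 genes tested there 11.5% were higher. The lists had been chosen with earlier results of these libraries known.

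Among the remaining types, cycling cells had 7 of 8 members higher, against 4.56% of 9815 genes. Cd74 measured 167, 148 and 589 CPM in the sham mice and 1608, 2319 and 2029 CPM in the DOCA-salt mice (log2 change 2.67 ± 0.49, edgeR adjusted p = 0.00454), and Cd86 had the largest change, 3.29 ± 0.54. Of 10 immune markers tested there 9 were also higher. A subcluster of cycling cells found among the immune cells made up 4 of 320 sham and 50 of 379 DOCA-salt cells. In smooth muscle cells or pericytes 1 of 4 members, H2-Eb1 (1.88 ± 0.37), was higher, against 1.05% of 7360 genes.

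No call was made in a cluster led by Wt1 and Ncam1 (0 of 6, against 2.83% of 9753 genes), monocytes (0 of 6, against 0% of 1252) or T cells (0 of 5, against 0.301% of 5642) by edgeR. At an unadjusted p under 0.05 there were 3, 1 and 5 members, against 1413, 61 and 532 of all genes tested in these types. That cluster scored highest for the podocyte list, but 1 of its 10 leading genes was on that list, so it is called by its leading genes. In it DOCA-salt 2 stood apart with 389 CPM of Cd74, against 43.6 and 109 CPM in the other DOCA-salt mice and 69.4, 11.1 and 72.0 CPM in the sham mice. In T cells DOCA-salt 3 stood apart with 309.6 CPM of Cd74, against 67.0 and 71.8 CPM and, in the sham mice, 23.1, 9.10 and 21.8 CPM (log2 change 2.93 ± 0.65, edgeR adjusted p = 0.0743). Fibroblasts, urothelial cells, neutrophils and NK cells had too few cells in some mice for a test.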

How the data were processed

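Kidney cells of 3 sham and 3 DOCA-salt mice were captured with 10x 3′ v3.1 chemistry. The authors deposited, per library, a filtered matrix of UMI counts for 33696 genes; the submitters' processing notes name Cell Ranger 9.0.0, Seurat 4.0.0 and R 4.0.3, and the matrix headers name another Cell Ranger version. The annotation release is not given in the sources used here. 0 sample columns were left unused. From these counts, barcodes with at most 50% mitochondrial UMIs and at most 5% hemoglobin UMIs were kept, every barcode having at least 500 UMIs, and doublets were removed per library at 0.8% per 1000 cells with Scrublet scores in scanpy 1.11.5 (Python 3.11.15). Cells were clustered (2000 variable genes, 30 components, 15 neighbours, Leiden resolution 1, leidenalg 0.10.2), with the immune clusters clustered again, and named from marker lists; the naming rules were completed after the clusters had been seen.

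The UMIs of each cell type were added up within a mouse. Mice with at least 10 cells of a type, at least 2 per group, were tested with edgeR 4.0.16 (R 4.3.3), quasi-likelihood test, filterByExpr, TMM, with Benjamini-Hochberg adjustment over all genes and a threshold of 0.05. Differences between cell types were interaction terms with mouse as block. Shares of cells were compared by exact permutation over mice, which 3 against 3 cannot take below 0.1. Levels on a log scale used a pseudocount of 1 CPM. The scripts were tested on simulated data. Alternatives were DESeq2 1.42.0, its size factors, no low-count filter, a replicate block, each mouse left out, 20% mitochondrial UMIs, no doublet removal, resolution 2, thinning to 500 UMIs and leaving out cells with an immune UMI. Adding the low-UMI cluster to the tubule, leaving injured cells out of it, and all alternatives for proximal and injured tubule cells, were chosen after seeing the data. The members and gene lists were chosen with earlier results of these data known. Named genes were the 8 members, at most 6 genes per other list and comparison that passed the test, and the 10 genes most like H2-Ab1. Tap2 and the uncalled RFX, NF-Y and Irf1 values were named after they had been seen, and the values of 1 list gene are not reported here. Nothing in the labels ties replicate numbers across groups. Each library is 1 mouse; intervals of a change use the t quantile at the degrees of freedom of edgeR's test and cover the spread between these mice.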

Additional observations from a re-analysis of the deposited data

Results flagged for a closer look

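The change of Cd86 between sham and DOCA-salt mice differed between macrophages and dendritic cells by -0.70 ± 0.16 on the log2 scale (edgeR interaction, adjusted p = 0.0409). This call was lost without any 1 of 5 of the 6 mice, all but sham 1, and the Cd86 difference of log2 changes, macrophages minus dendritic cells also missed the threshold with at most 20% mitochondrial UMIs (adjusted p = 0.0567) and at resolution 2 (adjusted p = 0.128). The changes of 6 members differed between tubular and endothelial cells by the same test. The tubular side includes injured cells, which were 0.206% to 0.797% of tubular cells in sham and 3.42% to 4.86% in DOCA-salt mice, and without them the same test gave 6 members with smaller differences, 0.67 to 2.28 on the log2 scale. For H2-Aa the difference, tubular minus endothelial, was 1.85 ± 0.20 (adjusted p = 1.70e-05), for H2-Ab1 2.15 ± 0.15 (2.35e-07) and for H2-Eb1 1.61 ± 0.15 (3.82e-06). For Cd74 it was 2.70 ± 0.15 (1.79e-08), for H2-DMa 0.88 ± 0.17 (0.00291) and for H2-DMb1 1.18 ± 0.17 (0.000195). No formal test for an outlying mouse was run on groups of 3.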

How the results depend on the processing

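Of 490 values of single members under alternatives other than leaving out a mouse, 452 kept their direction and their side of the threshold, 13 changed sign, 21 lost the call and 4 gained it. With 1 mouse left out, 386 values kept both, 26 changed sign, 45 lost the call and 2 gained it. Calls in macrophages rested on the tool: DESeq2 called 1 member where edgeR called 0. In endothelial cells 2 members were called without the filter on low counts, and 0 without doublet removal or without cells with an immune UMI. The call of a difference between macrophages and dendritic cells was lost, giving 0 members, with at most 20% mitochondrial UMIs and with resolution 2. Without injured tubule cells 5 members were called in tubular cells. The cause was not tested.

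With the replicate number as a block, 5 members were called in tubular, 3 in proximal tubule and 0 in endothelial cells. The numbers do not pair the mice: same-numbered mice correlated at -0.461 to -0.018, and none correlated best with its own number.

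Leaving out 1 mouse gave 6 to 8 called members in the whole kidney, 0 to 2 in endothelial cells, 4 to 8 in tubular, 3 to 8 in proximal tubule and 2 to 4 in injured tubule cells, and 0 to 1 for the difference between macrophages and dendritic cells.

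The values that changed sign were these. In dendritic cells Ciita was 0.14 without doublet removal. In B cells H2-DMb1 was 0.068 with DESeq2 and 0.14 without doublet removal, and H2-Aa was -0.048 without the filter. The Cd74 log2 change in B cells was -0.17 without the filter, -0.030 with at most 20% mitochondrial UMIs and -0.032 without doublet removal. In endothelial cells H2-Ab1 was 0.0093 without the filter and H2-DMa 0.017 with resolution 2. Macrophages minus dendritic cells gave -0.14 for H2-Aa and -0.050 for H2-DMa without doublet removal, and 0.00040 for H2-Ab1 with resolution 2. Tubular minus endothelial cells gave -0.15 for Cd86 without doublet removal. The difference in the share of endothelial cells with a Cd74 UMI was 0.0836 percentage points at 500 UMIs and 8.45 unthinned, against -1.69 at 1000.

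Leaving out 1 mouse in turn changed the sign of 26 single values, which fell on 16 pairs of member and comparison. In macrophages H2-Aa ran from -0.24 to 0.015. In dendritic cells Cd86 ran from -0.012 to 0.26 and Ciita from -0.38 to 0.13. In B cells Cd74 ran from -0.16 to 0.12, H2-DMa from -0.40 to 0.049, H2-DMb1 from -0.63 to 0.37 and H2-Eb1 from -0.21 to 0.14. In endothelial cells Cd74 ran from -0.41 to 0.11, H2-Ab1 from -0.34 to 0.15 and H2-DMa from -0.18 to 0.076, and in injured tubule cells Ciita from -0.11 to 1.76. Macrophages minus dendritic cells ran from -0.051 to 0.15 for H2-Aa, from -0.12 to 0.0095 for H2-Ab1 and from -0.26 to 0.0020 for H2-Eb1. Tubular minus endothelial cells ran from -0.49 to 0.50 for Cd86 and from -0.40 to 0.13 for Ciita.

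Limits are the 3 mice per group, 1 library per mouse, and the sparse counts of Ciita and Cd86 outside immune cells. Sham mice gave 15 to 55 injured tubule cells.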

Other observations

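The unequal H2-Ab1 and Cd74 levels between libraries were also present in cycling cells, where H2-Ab1 per H2-Aa UMI was 1.33, 0.633 and 1.11 in the sham mice and 0.571, 1.10 and 0.715 in the DOCA-salt mice. In the whole kidney it was 1.17, 0.560 and 1.43 against 0.652, 1.08 and 0.695. Within each mouse Cd74 per H2-Ab1 UMI was lower in endothelial cells, at 1.18 to 1.51, than in macrophages, at 2.36 to 2.74, or in B cells, at 2.96 to 4.03.

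Dendritic cells were of unlike kinds. In the cluster led by Cd209a pooled Cd74 was 20873 CPM in sham and 15738 CPM in DOCA-salt mice, and in the cluster led by Wdfy4 and Xcr1 it was 10615 and 10414 CPM. Pooled Cd86 was 1134 and 1339 CPM in the first and 596 and 606 CPM in the second. Ciita was close between these 2 clusters, at 145 and 166 CPM and at 149 and 130.4 CPM. A further dendritic cluster, led by Ccr7 and Fscn1, held 1, 0 and 1 cells of the sham mice and 9, 4 and 6 of the DOCA-salt mice. Its levels are not given here, and its part in the dendritic cell sums was not tested.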
